A study of Homo sapiens with 12 samples.

Results

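The genes described here are 9 enzymes that break down cysteine and oxidise the sulfide made from it, CDO1, ADO, CSAD, GOT1, MPST, TST, SQOR, ETHE1 and SUOX. They were chosen by name, and each matched 1 of the 60671 named gene rows of the deposited table. RNA was sequenced from HCT116, an established human colorectal carcinoma cell line of wild-type genotype, in 4 groups of 3 samples. Control cells stayed in full DMEM with 10% fetal bovine serum and antibiotics, and deprived cells were washed and given DMEM with the same serum and antibiotics and 0 mM cystine, the oxidised dimer of cysteine. Each condition was collected at 24 h and at 48 h. The wash and the fresh medium are described for deprived cells only, so their effect and that of cystine withdrawal cannot be told apart. The labels leave it unstated whether replicates were grown as separate cultures; if not, the p-values cover technical spread only. The cells are 1 line in culture, and the serum was present in both media.

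Cysteine is broken down by a few routes. Cysteine dioxygenase oxidises it to cysteine sulfinate, which is decarboxylated to hypotaurine and then taurine, or transaminated and broken down to pyruvate and sulfite. By another route cysteine is transaminated to mercaptopyruvate, whose sulfur is passed on as a persulfide or released as hydrogen sulfide. In mitochondria sulfide is oxidised stepwise to persulfide, sulfite and sulfate, with electrons entering the respiratory chain through ubiquinone, and colon epithelium is known for this route because it faces sulfide made by gut bacteria.

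Samples held 19146108 to 24179533 estimated counts, and the filter on low counts kept 16994 genes, among them 8 of the 9 members. CDO1 was too low. Levels are counts-per-million values (CPM) on TMM-scaled library sizes, and every adjusted p is that of edgeR's quasi-likelihood test with Benjamini-Hochberg adjustment over the 16994 genes, called at under 0.05. Of 8 markers of colorectal epithelium, CDX1 was at 0 in all samples. VIL1 had group means of 0.833 to 1.25 CPM, and the group means of the others were higher. At 24 h the 8, mostly KRT8, KRT18 and KRT19, summed to 3683 to 4089 CPM in control cells and 5082 to 5212 CPM in deprived cells. At 48 h the sums were 3985 to 4398 CPM and 4734 to 5275 CPM. The leukocyte markers PTPRC and CD3E were at 0 in all samples, and the sum of the 4 leukocyte markers, carried by CD68, was 4.0 to 5.19 CPM in control and 10.6 to 11.8 CPM in deprived cells at 24 h and 9.87 to 10.5 and 22.6 to 26.7 CPM at 48 h. The sum of the 4 fibroblast markers, mostly COL1A1, was 31.6 to 34.1 and 15.8 to 20 CPM at 24 h and 44.1 to 49.2 and 19.4 to 22.2 CPM at 48 h. The 3 endothelial markers together stayed under 1 CPM in each sample, and so did the 3 hepatocyte markers. The part of these shifts in the results below was not tested.

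Under cystine deprivation GOT1, CSAD and ADO rose at both times, and MPST, TST, ETHE1 and SUOX fell at both. SQOR, the enzyme that takes up sulfide, rose at 48 h and was not called at 24 h. At 24 h, 3 members were higher and 4 lower, 7 of 8, where 55.6% of all genes tested were called (28.8% higher and 26.9% lower). At 48 h, 4 were higher and 4 lower, where 68.3% of all genes were called (33.5% higher and 34.9% lower). With so many genes called, the number of members called is not a result about them. The median log2 fold change of the 8 was -0.21 at 24 h and -0.03 at 48 h, beside -0.01 and -0.02 over all genes tested.

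**Figure D1:**
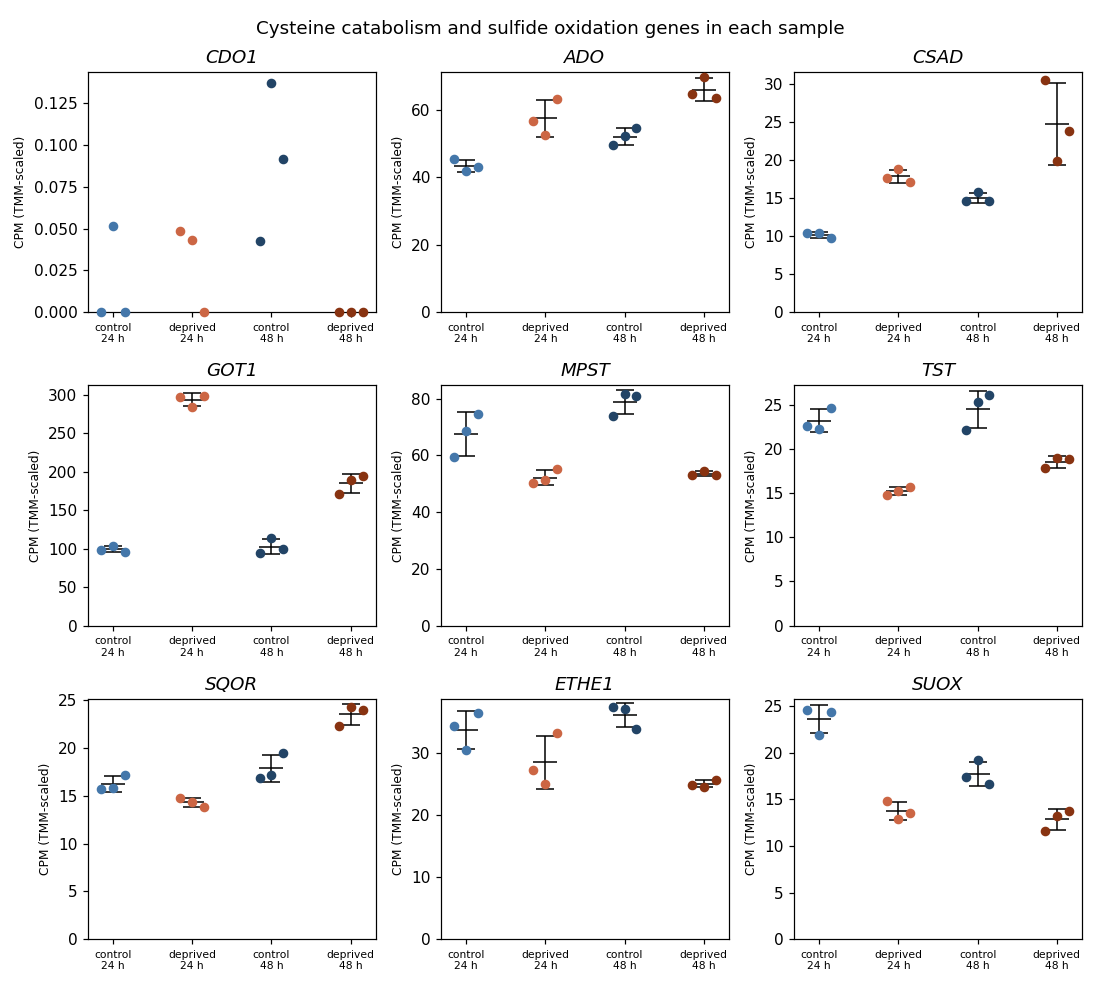
Level of each of the 9 genes in each of the 12 samples, in CPM (y axis, each gene on its own scale starting at 0), by group (x axis); points are samples, and lines show the mean and SD of 3 samples, left out for CDO1. GOT1 stands at 284 to 299 CPM in deprived cells at 24 h against 95.9 to 104 CPM in controls, and CDO1 does not pass 0.137 CPM in any sample.

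CDO1, cysteine dioxygenase, the enzyme that commits cysteine to sulfinate (chromosome 5, 115804733 to 115816954, GRCh38), was near the floor in every group. It had 9 reads over all 12 samples and at most 3 in any one. There was 1 read over the 3 control samples at 24 h (0.0166 CPM, exact 95% Poisson interval 0.000421 to 0.0927), and 2 over the deprived samples (0.0298 CPM, 0.00361 to 0.108). At 48 h there were 6 reads in control samples (0.0894 CPM, 0.0328 to 0.195) and 0 in deprived samples (upper bound of the same interval 0.0557 CPM). As a limit for a count of 0, 3 reads over that group would be 0.0453 CPM. The intervals and the limit cover counting error only. No change in CDO1 was detectable at this depth: tested without a filter on low counts, among 32908 genes, its adjusted p was 0.902 at 24 h and 0.119 at 48 h.

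GOT1, the cytosolic aspartate aminotransferase, moves the amino group of cysteine sulfinate and of cysteine as well as that of aspartate (chromosome 10, 99396870 to 99431569). Its level was 98.1, 104 and 95.9 CPM in the control samples at 24 h and 298, 284 and 299 CPM in the deprived samples. At 48 h it was 94.5, 114 and 100 CPM in control and 171, 190 and 194 CPM in deprived samples. Every deprived sample lay above every control sample at its time, and the deprived samples at 24 h lay above those at 48 h. The rise was 2.96-fold at 24 h, a log2 fold change of 1.56 ± 0.07 (SE, adjusted p = 4.44e-13), and 1.80-fold at 48 h, 0.85 ± 0.07 (adjusted p = 8.28e-10). The rise at 48 h was smaller than that at 24 h by 0.71 ± 0.09 on the log2 scale (interaction -0.71, adjusted p = 6.37e-06). In deprived cells GOT1 fell by 0.67 ± 0.06 between the times (adjusted p = 8.89e-08), while in control cells the change was 0.05 ± 0.07 (adjusted p = 0.656).

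The sequence before the start of GOT1 is shown because it was the only one among the 7 members with an entry in the RefSeq promoter table (GRCh38.p14; CDO1, ADO, CSAD, GOT1, SQOR, ETHE1 and SUOX) to hold the letters TGATGNAA, an element read by ATF4 and its partners. MPST and TST have no entry. The search covered the 250 bases before each start on both strands. Windows with TGATGNAA made up 3.15% of 34943 windows of the same length. None of the 7 held TGACNNNGC, an antioxidant response element (10.9% of windows), or ACGTG, the core of the hypoxia response element (18.5%). In GOT1 the match starts 198 bases before the RefSeq start and reads on the opposite strand. In GENCODE release 29 the GOT1 gene begins further upstream, and all 250 bases of this window lie in its annotated exons. For comparison, bases before the starts of ADO, which rose, and of ETHE1 and SUOX, which fell, are given as far as they lie outside exons of the gene itself; they hold none of these motifs. A match is letters only and no evidence of binding. Each line reads 5′ to 3′ on the strand of the gene, and capitals mark the TGATGNAA match.
GOT1, chr10:99430804-99430833, minus strand: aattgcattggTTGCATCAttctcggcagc
ADO, chr10:62804470-62804719, plus strand: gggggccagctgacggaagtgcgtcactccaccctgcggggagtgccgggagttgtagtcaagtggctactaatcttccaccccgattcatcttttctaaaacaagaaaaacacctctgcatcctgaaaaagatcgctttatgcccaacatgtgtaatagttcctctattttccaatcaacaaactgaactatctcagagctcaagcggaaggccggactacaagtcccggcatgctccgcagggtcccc
ETHE1, chr19:43527245-43527451, minus strand: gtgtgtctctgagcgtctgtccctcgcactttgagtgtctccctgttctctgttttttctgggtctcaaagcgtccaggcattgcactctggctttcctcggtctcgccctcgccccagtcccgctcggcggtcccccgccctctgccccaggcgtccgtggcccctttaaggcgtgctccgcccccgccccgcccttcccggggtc
SUOX, chr12:55997026-55997179, plus strand: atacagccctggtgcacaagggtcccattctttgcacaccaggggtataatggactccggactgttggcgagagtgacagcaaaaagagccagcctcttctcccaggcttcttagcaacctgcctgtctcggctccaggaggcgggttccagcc

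CSAD, which decarboxylates cysteine sulfinate to hypotaurine (chromosome 12, 53157663 to 53180909), was at 10.4, 10.4 and 9.69 CPM in control and 17.6, 18.8 and 17.1 CPM in deprived samples at 24 h. At 48 h it was at 14.6, 15.7 and 14.6 CPM in control and 30.5, 19.9 and 23.8 CPM in deprived samples. The groups did not overlap at either time, and the deprived samples at 48 h were the most spread. The log2 fold change was 0.81 ± 0.12 at 24 h (adjusted p = 1.63e-05) and 0.72 ± 0.11 at 48 h (adjusted p = 1.54e-05), with no called difference between the times (-0.09 ± 0.17, 95% interval -0.44 to 0.26, adjusted p = 0.723). CSAD rose between 24 h and 48 h in both media, by 0.56 ± 0.13 in control cells (adjusted p = 0.00301) and by 0.47 ± 0.11 in deprived cells (adjusted p = 0.00223). Without deprived 48 h replicate 1 the latter was 0.29 (adjusted p = 0.0164). Exons of CSAD share 106 bases with ZNF740 on the other strand, and 651 exon bases of GOT1 and 238 of ETHE1 lie opposite AL391684.1 and ZNF575. The sources used here do not give the strand setting, so reads of each such pair cannot be told apart there. The estimated count of ZNF740 was 1215 to 1513 over the samples, beside 189 to 693 for CSAD. That of AL391684.1 was 21 to 78, beside 1870 to 6975 for GOT1. For ZNF575 it was 10 to 29, beside 530 to 880 for ETHE1.

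ADO oxidises cysteamine to hypotaurine and the exposed N-terminal cysteine of some proteins, which marks them for degradation when oxygen is present (chromosome 10, 62804857 to 62808483). Its level was 45.3, 41.9 and 43.0 CPM in control and 56.8, 52.5 and 63.4 CPM in deprived samples at 24 h, and 49.6, 52.2 and 54.5 CPM in control and 64.6, 69.9 and 63.5 CPM in deprived samples at 48 h. Deprived samples lay above controls at each time. The log2 fold change was 0.41 ± 0.07 at 24 h (adjusted p = 6.26e-05) and 0.34 ± 0.07 at 48 h (adjusted p = 0.000191), and the difference between them was -0.07 ± 0.10 (95% interval -0.27 to 0.14, adjusted p = 0.649). ADO also rose with time, by 0.26 ± 0.07 in control cells (adjusted p = 0.0108) and by 0.20 ± 0.07 in deprived cells (adjusted p = 0.0252). The control change was not called without control 24 h replicate 2 or control 48 h replicate 3 (adjusted p = 0.0528 each), and the deprived change was not called without deprived 24 h replicate 1 (0.19, adjusted p = 0.072), deprived 24 h replicate 2 (0.13, adjusted p = 0.155) or deprived 48 h replicate 2 (0.16, adjusted p = 0.118).

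**Figure D2:**
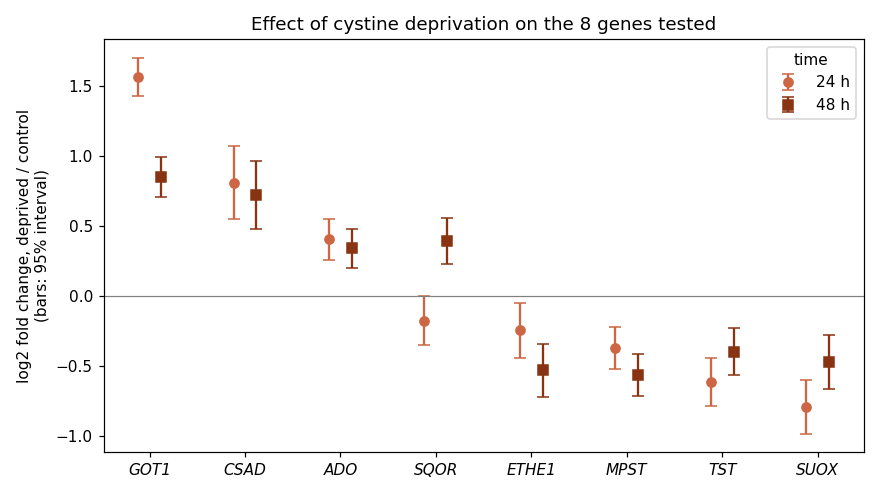
Log2 fold change of deprived over control cells (y axis) for each of the 8 genes tested (x axis) at 24 h (circles) and 48 h (squares), with 95% intervals from edgeR. GOT1, CSAD and ADO lie above 0 at both times, ETHE1, MPST, TST and SUOX below, and SQOR goes from -0.18 at 24 h to 0.39 at 48 h.

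MPST and TST are related sulfurtransferases that lie head to head on chromosome 22. MPST takes the sulfur of mercaptopyruvate (37019635 to 37029822, plus strand), and TST, rhodanese, moves sulfur between thiosulfate, persulfides and cyanide (37010859 to 37020183, minus strand). The annotated genes overlap by 549 bases, of which 6 are exonic in both. MPST was at 59.3, 68.6 and 74.6 CPM in control and 50.3, 51.2 and 55.1 CPM in deprived samples at 24 h, and at 74.0, 81.7 and 80.8 CPM and 53.0, 54.6 and 53.0 CPM at 48 h. All deprived samples lay below all controls of their time. MPST fell by 0.37 ± 0.07 on the log2 scale at 24 h (adjusted p = 0.000237) and by 0.56 ± 0.07 at 48 h (adjusted p = 9.97e-07). The difference between the times was -0.19 ± 0.10 (95% interval -0.40 to 0.02, adjusted p = 0.159), and was called without control 24 h replicate 3 (-0.26, adjusted p = 0.0447). MPST rose by 0.22 ± 0.07 between the times in control cells (adjusted p = 0.0266). That call was lost without control 24 h replicate 1 (0.14, adjusted p = 0.18) or replicate 2 (adjusted p = 0.0582), without control 48 h replicate 2 (adjusted p = 0.0984) or replicate 3 (adjusted p = 0.0881), and when library totals alone set the scale (adjusted p = 0.0548). In deprived cells the change was 0.04 ± 0.07 (95% interval -0.12 to 0.19, adjusted p = 0.731).

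TST was at 22.6, 22.3 and 24.7 CPM in control and 14.8, 15.2 and 15.7 CPM in deprived samples at 24 h. At 48 h it was at 22.1, 25.3 and 26.1 CPM in control and 17.8, 19.0 and 18.9 CPM in deprived samples. The groups did not overlap at either time. TST fell by 0.61 ± 0.08 on the log2 scale at 24 h (adjusted p = 3.67e-06) and by 0.40 ± 0.08 at 48 h (adjusted p = 0.000178), and the difference, 0.21 ± 0.11, was not called (95% interval -0.03 to 0.44, adjusted p = 0.17). It rose by 0.29 ± 0.08 from 24 h to 48 h in deprived cells (adjusted p = 0.0086). Across the 12 samples the log2 levels of MPST and TST had a Pearson correlation of 0.90, the highest of the 28 pairs among the tested members, and those of GOT1 and TST had -0.95, the lowest; all points share the same 12 libraries and 4 groups, so these values describe the pattern only.

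SQOR, the mitochondrial sulfide quinone oxidoreductase, oxidises sulfide to a persulfide and hands the electrons to ubiquinone (chromosome 15, 45631148 to 45691294). It was at 15.7, 15.8 and 17.2 CPM in control and 14.8, 14.3 and 13.8 CPM in deprived samples at 24 h. At 48 h it was at 16.9, 17.2 and 19.5 CPM in control and 22.3, 24.3 and 24.0 CPM in deprived samples. Deprived samples thus lay below the controls at 24 h and above them at 48 h, with no overlap at either time. At 24 h the log2 fold change was -0.18 ± 0.08 and was not called (adjusted p = 0.0809); it was called with upper-quartile scaling (-0.25, adjusted p = 0.0154), with library totals alone (-0.25, adjusted p = 0.0129) and when only genes averaging 5 CPM or more were kept (-0.20, adjusted p = 0.0439). At 48 h SQOR rose by 0.39 ± 0.08 (1.31-fold, adjusted p = 0.000209). The effects at the 2 times differed by 0.57 ± 0.12 (adjusted p = 0.000733). In deprived cells SQOR rose by 0.72 ± 0.08 from 24 h to 48 h (1.64-fold, adjusted p = 8.25e-07), and in control cells the change was 0.14 ± 0.08 (adjusted p = 0.229). Another annotated gene, AC090527.2, shares 881 exon bases with SQOR on the same strand, and its estimated count was between 0 and 5.44.

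ETHE1, the persulfide dioxygenase that follows SQOR and yields sulfite (chromosome 19, 43506719 to 43527244), was at 34.5, 30.5 and 36.5 CPM in control and 27.3, 25.0 and 33.3 CPM in deprived samples at 24 h. At 48 h it was at 37.5, 37.1 and 34.0 CPM in control and 24.9, 24.6 and 25.7 CPM in deprived samples. The groups overlapped at 24 h, through deprived replicate 3, and not at 48 h. ETHE1 fell by 0.24 ± 0.09 on the log2 scale at 24 h (adjusted p = 0.0293) and by 0.53 ± 0.09 at 48 h (adjusted p = 4.15e-05). The call at 24 h was lost without control replicate 1 (-0.23, adjusted p = 0.079), control replicate 3 (-0.19, adjusted p = 0.135), deprived replicate 1 (-0.21, adjusted p = 0.102) or deprived replicate 2 (-0.15, adjusted p = 0.187), and the value was -0.37 without deprived replicate 3 (adjusted p = 0.00139). The difference between the times was -0.28 ± 0.13 (adjusted p = 0.0962), called without deprived 24 h replicate 2 (-0.37, adjusted p = 0.0322).

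SUOX, sulfite oxidase, the molybdenum enzyme that makes sulfate in the last step (chromosome 12, 55997180 to 56006641), was at 24.6, 21.9 and 24.4 CPM in control and 14.8, 12.9 and 13.5 CPM in deprived samples at 24 h. At 48 h it was at 17.4, 19.2 and 16.7 CPM in control and 11.6, 13.2 and 13.8 CPM in deprived samples. The groups did not overlap at either time, and the control samples at 48 h lay below those at 24 h. SUOX fell by 0.79 ± 0.09 on the log2 scale at 24 h (adjusted p = 5.45e-07) and by 0.47 ± 0.09 at 48 h (adjusted p = 0.000172). In control cells it fell by 0.41 ± 0.09 from 24 h to 48 h (adjusted p = 0.00232), and in deprived cells the change was -0.09 ± 0.09 (95% interval -0.29 to 0.11, adjusted p = 0.464). The difference of the 2 effects, 0.32 ± 0.13, was not called (adjusted p = 0.0641). It was called with upper-quartile scaling (0.33, adjusted p = 0.0492) and library totals alone (0.37, adjusted p = 0.0249), and without control 24 h replicate 2 (0.37, adjusted p = 0.0446), control 48 h replicate 2 (0.38, adjusted p = 0.0394), deprived 24 h replicate 1 (0.37, adjusted p = 0.0455) or deprived 48 h replicate 1 (0.39, adjusted p = 0.0242).

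The comparisons over time share samples with those between media. The effect of deprivation differed between the times for 2 of the 8 tested members, GOT1 and SQOR, 1 smaller and 1 larger at 48 h, where 35.6% of all genes were called (16.4% higher and 19.2% lower). In deprived cells from 24 h to 48 h, ADO, CSAD, TST and SQOR rose and GOT1 fell, 5 of 8, where 42.5% of all genes were called (20.7% higher and 21.8% lower). In control cells ADO, CSAD and MPST rose and SUOX fell, 4 of 8, where 23.0% of all genes were called (12.7% higher and 10.4% lower, or 2151 and 1760 genes). With library totals alone as the scale, the control comparison gave 1697 genes higher and 2580 lower, and 2 members higher and 1 lower. In these bulk samples each level is a share of the RNA, so fewer cells that express a gene and less of its RNA per cell cannot be told apart.

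Per kilobase of the deposited gene length (CPM divided by the length in kilobases, RPKM), the members spanned a wide range of levels. In control cells at 24 h MPST (50.7 ± 5.77, SD, n = 3) and GOT1 (50.2 ± 2.16) were highest and overlapped, followed by ETHE1 at 32.2, TST at 21.0 and ADO at 11.5 RPKM, then SUOX at 10.2 and SQOR at 9.52 RPKM, which overlapped, and CSAD at 3.83 RPKM. CDO1 was at 0.0109 RPKM. In deprived cells at 24 h GOT1 stood alone at 149 ± 4.21 RPKM, ahead of MPST at 39.2, ETHE1 at 27.1, ADO at 15.3 and TST at 13.8 RPKM, of which ADO and TST overlapped, and SUOX, at 5.91 RPKM, was below CSAD, at 6.74 RPKM. At 48 h the order in control cells was MPST, GOT1, ETHE1, TST, ADO, SQOR, SUOX and CSAD, from 59.2 to 5.67 RPKM, and neighbours other than MPST and GOT1 did not overlap. In deprived cells at 48 h it was GOT1, MPST, ETHE1, ADO, TST, SQOR, CSAD and SUOX, from 93.6 to 5.54 RPKM, and only ADO and TST overlapped. CDO1 was the lowest in all 4 groups.

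**Figure D3:**
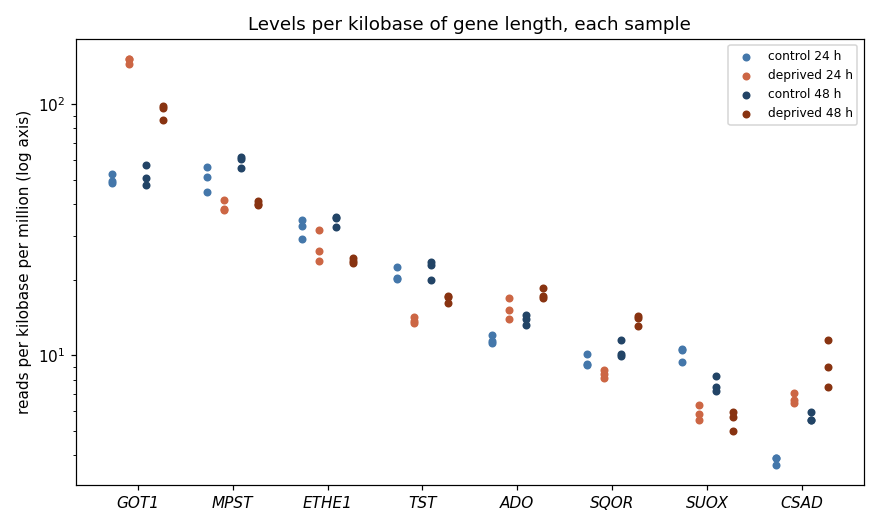
Level per kilobase of gene length (RPKM, log axis) of the 8 genes tested (x axis), each point a sample, coloured by group; CDO1, which is at 0 in several samples, is not drawn. GOT1 in deprived cells at 24 h lies at 144 to 151 RPKM, above every other gene and group, and CSAD and SUOX exchange the last place between control and deprived cells.

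The steps around these enzymes were described with 8 lists of related genes. The shares of all genes called, 55.6% at 24 h and 68.3% at 48 h, stand behind each count below, and no list was tested against them. Other enzymes that can make sulfide or mercaptopyruvate had 4 of 6 members tested. At 24 h, 0 were higher and 1 lower (median 0.04), and at 48 h, 2 were higher and 2 lower (median 0.23). CTH, which makes cysteine from cystathionine and can release sulfide, had log2 fold changes of 0.08 ± 0.08 at 24 h (adjusted p = 0.4) and 0.77 ± 0.08 at 48 h (adjusted p = 4.89e-08). GOT2, the mitochondrial partner of GOT1, had 0.01 ± 0.06 at 24 h (adjusted p = 0.939) and rose by 0.71 ± 0.06 at 48 h (adjusted p = 1.21e-09), from 99.8 ± 2.30 to 163 ± 11.8 CPM. KYAT1, a kynurenine aminotransferase and cysteine conjugate beta-lyase, fell by 1.48 ± 0.17 at 24 h and by 1.52 ± 0.17 at 48 h, from 7.69 ± 0.535 to 2.76 ± 0.0815 CPM at 24 h. CBS had 9 reads over the 12 samples and DAO had 2, too few to test; CBS has a near-identical copy that can share its reads, so this does not tell how strongly it was expressed.

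The list for the hypotaurine and taurine branch, which does not hold CSAD and ADO, had 2 of 5 genes tested, a transporter and a glutamate decarboxylase. Both fell at both times (median -1.14 at 24 h and -1.81 at 48 h), where 26.9% of all genes were lower at 24 h and 34.9% at 48 h, while CSAD and ADO, which make hypotaurine, rose at both. SLC6A6, the taurine transporter, went from 133 ± 4.69 to 50.4 ± 4.37 CPM at 24 h and from 176 ± 11.8 to 42.7 ± 3.42 CPM at 48 h (SD, n = 3). It fell by 1.40 ± 0.07 at 24 h and fell by 2.05 ± 0.07 at 48 h on the log2 scale (adjusted p = 7.66e-12 and 9.33e-15). GAD1, a glutamate decarboxylase related in sequence to CSAD, fell by 0.89 ± 0.15 and by 1.56 ± 0.15. FMO1, which oxidises hypotaurine to taurine, GADL1 and BAAT were too low to test.

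Genes for the molybdenum cofactor, which SUOX needs, had 5 of 5 members tested, with 3 higher and 1 lower at 24 h (median 0.23) and 4 higher and 1 lower at 48 h (median 0.99), beside 55.6% and 68.3% of all genes called. MOCOS, which adds sulfur from cysteine to the cofactor of other molybdenum enzymes but not of SUOX, went from 19.7 ± 0.651 to 69.4 ± 0.569 CPM at 24 h and from 18.4 ± 0.396 to 106 ± 1.27 CPM at 48 h, rises of 1.81 ± 0.06 and 2.53 ± 0.05 (adjusted p = 3.98e-15 and 7.05e-18). MOCS3, which carries sulfur to the cofactor, rose by 0.43 ± 0.09 and 1.13 ± 0.08. MOCS1, which acts first in the pathway, had 0.04 ± 0.11 at 24 h (adjusted p = 0.804) and rose by 0.99 ± 0.10 at 48 h. Genes of sulfate activation and transport had 7 of 7 tested, with 2 higher and 4 lower at 24 h (median -0.32) and 3 higher and 4 lower at 48 h (median -0.29). PAPSS2, a synthase of the activated sulfate donor, fell by 0.62 ± 0.08 and by 0.70 ± 0.08, and SLC35B3, a Golgi transporter of that donor, rose by 0.51 ± 0.10 and 0.87 ± 0.10. BPNT1, a phosphatase of the spent donor, rose by 0.21 ± 0.07 at 24 h (adjusted p = 0.0171), a call lost with upper-quartile scaling (0.14, adjusted p = 0.0913), with library totals alone (0.14, adjusted p = 0.0821) and without control 24 h replicate 1 (0.16, adjusted p = 0.0938), and by 0.64 ± 0.07 at 48 h.

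**Figure D4:**
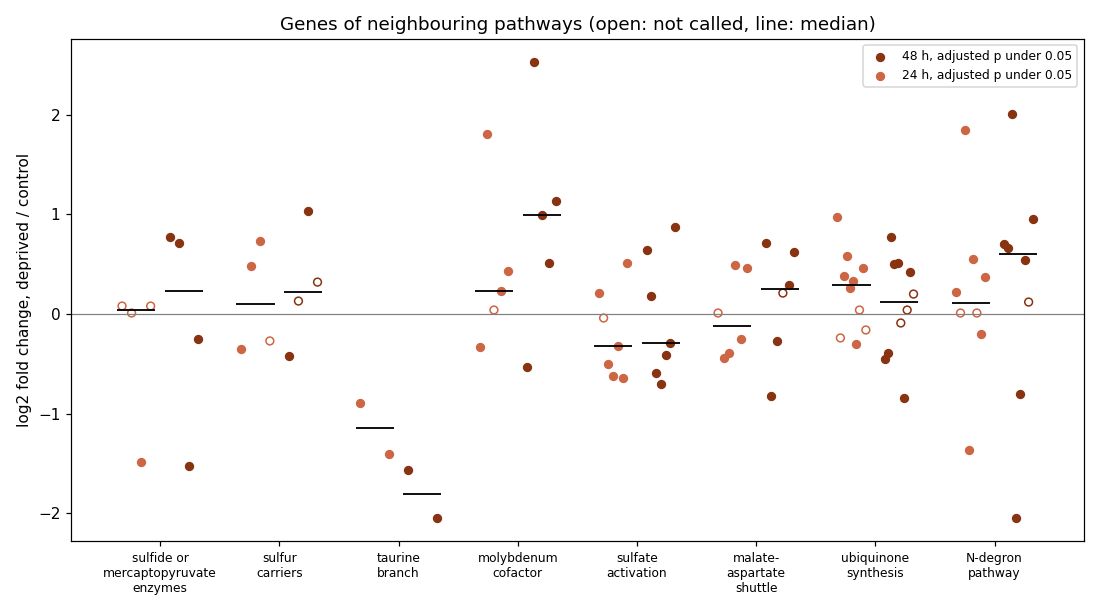
Log2 fold change of deprived over control cells (y axis) for each tested gene of the 8 neighbouring lists (x axis), at 24 h (light) and 48 h (dark); filled points passed an adjusted p under 0.05, open points did not, and lines are medians. The 2 tested genes of the taurine branch list, SLC6A6 and GAD1, lie below 0 at both times, and MOCOS is the highest point, at 2.53 at 48 h.

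Rhodanese-like and other sulfur carriers had 4 of 5 tested, with 2 higher and 1 lower at 24 h (median 0.10) and 1 higher and 1 lower at 48 h (median 0.22). TSTD2, a rhodanese-domain protein, rose by 0.73 ± 0.07 and 1.03 ± 0.07, while SLC25A10, the mitochondrial dicarboxylate carrier that can move thiosulfate and sulfate, fell by 0.35 ± 0.07 and by 0.42 ± 0.07. TSTD3 was not called at 24 h (-0.27 ± 0.18, adjusted p = 0.226) or at 48 h (0.32 ± 0.18, adjusted p = 0.131). The malate-aspartate shuttle, in which GOT1 and GOT2 take part, had 6 of 6 tested, with 2 higher and 3 lower at 24 h (median -0.12) and 3 higher and 2 lower at 48 h (median 0.25). MDH1, the cytosolic malate dehydrogenase, fell by 0.44 ± 0.06 and by 0.82 ± 0.06, and SLC25A13, an aspartate-glutamate carrier, rose by 0.46 ± 0.08 and 0.62 ± 0.08.

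Genes of ubiquinone synthesis, the electron acceptor of SQOR, had 10 of 10 tested, with 6 higher and 1 lower at 24 h (median 0.29) and 4 higher and 3 lower at 48 h (median 0.12), so that 7 of 10 were called at each time, beside 55.6% and 68.3% of all genes. COQ2, which joins the ring to its side chain and was named after its values were seen, rose by 0.97 ± 0.10 at 24 h (adjusted p = 1.96e-07) and fell by 0.45 ± 0.11 at 48 h (adjusted p = 0.00141). Its level went from 12.1 ± 1.2 to 23.8 ± 1.33 CPM at 24 h and from 12.3 ± 1.67 to 8.96 ± 0.636 CPM at 48 h (SD, n = 3). COQ4, a member of the synthesis complex, rose by 0.38 ± 0.07 and 0.77 ± 0.07, and COQ8A, an atypical kinase of the same complex, fell by 0.30 ± 0.06 and by 0.84 ± 0.06. COQ6, a ring hydroxylase, rose by 0.51 ± 0.09 at 48 h and by 0.26 ± 0.09 at 24 h (adjusted p = 0.0185), a call lost with upper-quartile scaling (0.19, adjusted p = 0.0724), with library totals alone (0.18, adjusted p = 0.0717), with no filter (0.25, adjusted p = 0.056) and without control 24 h replicate 2 (0.23, adjusted p = 0.0645) or deprived 24 h replicate 3 (0.22, adjusted p = 0.0713). Genes of the N-degron pathway that ADO feeds had 8 of 8 tested, with 4 higher and 2 lower at 24 h (median 0.11) and 5 higher and 2 lower at 48 h (median 0.60), beside 55.6% and 68.3% of all genes called. RGS16, a regulator of G protein signalling with an N-terminal cysteine, went from 3.79 ± 0.352 to 13.7 ± 1.17 CPM at 24 h, a rise of 1.85 ± 0.13, and rose by 2.01 ± 0.13 at 48 h. UBR4, a ubiquitin ligase of the pathway, rose by 0.37 ± 0.07 and 0.95 ± 0.07. Unlike RGS5 and RGS4 below, IL32 of the same list rose at 48 h, by 0.66 ± 0.27 (adjusted p = 0.0406). At 24 h its change was 0.01 ± 0.27 (adjusted p = 0.984). IL32 was low, with group means of 1.47 to 2.33 CPM, and was named after its values were seen. RGS5, a target of ADO that was also named after its values were seen, fell by 0.80 ± 0.20 at 48 h (adjusted p = 0.00149). At 24 h it rose by 0.55 ± 0.20 (adjusted p = 0.0279) with overlapping groups, a call lost with upper-quartile scaling (0.48, adjusted p = 0.051), with library totals alone (0.47, adjusted p = 0.0548) and without control 24 h replicate 2 (0.36, adjusted p = 0.144), deprived 24 h replicate 1 (0.47, adjusted p = 0.0942) or deprived 24 h replicate 2 (0.48, adjusted p = 0.0935). RGS4, another target of ADO, had group means of 0.394 to 1.65 CPM and fell by 2.05 ± 0.53 at 48 h (adjusted p = 0.00197). At 24 h its fall, by 1.36 ± 0.55 (adjusted p = 0.0436), was not called without control 24 h replicate 2 (adjusted p = 0.0808) or replicate 3 (-1.04, adjusted p = 0.179), control 48 h replicate 2 (adjusted p = 0.0541) or replicate 3 (adjusted p = 0.0524), or deprived 24 h replicate 2 (-1.27, adjusted p = 0.112) or replicate 3 (-0.87, adjusted p = 0.178), nor with the replicate number as a block (-1.34, adjusted p = 0.0594); without deprived 24 h replicate 1 it was -2.21 (adjusted p = 0.00675).

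The genes whose pattern over the 12 samples was most like that of a member are given for 7 of the 8 tested members. They were taken, by the Pearson correlation of log2 levels, from 11136 genes averaging 5 CPM or more. Genes with clone-like, LINC or antisense names were left out of these. For GOT1 these were SHC1 (0.993), SUMF2 (0.988) and QKI (0.987), for TST GABARAPL2 (0.986), PNPLA6 and CYBA, and for MPST SH2B2 (0.981), KIAA2013 and ALDOA. SQOR was closest to ACOT8 (0.975), CCDC115 and RBBP4, and ETHE1 was closest to SKI (0.972), STK25 and CECR2. For ADO they were RNF113A (0.966), ACTR3B and FRG1BP, and for CSAD HHLA3 (0.965), PSORS1C1 and PARD6B. The points share libraries and fall into 4 groups, so values this high are a description only.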

How the data were processed

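Counts came from RNA-seq of 12 HCT116 samples, grouped by their titles. The authors deposited 1 table of estimated counts per gene, not normalized, with a gene length in bases. Per the submitters' processing notes, GRCh38 was the build, and the tools named are RSEM, HISAT and fastp, without versions; no annotation release is named. The 316 rows of 60987 without a gene name (0.748 to 1.65% of counts) were left out. Counts were rounded, filtered with filterByExpr (minimum count 10, minimum total 15) and scaled by TMM. The 4 groups were fitted in edgeR 4.0.16 (R 4.3.3) with no block, and 5 contrasts tested; the SE is the log2 fold change over the root of F. The biological coefficient of variation was 6.40%. Replicates differed by more than sampling noise (chi-square per degree of freedom 2.99 to 8.14). Correlations used log2(CPM + 0.5).

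The members and lists were chosen with earlier results of these data known. From each list up to 3 tested genes with the largest change at 48 h are named, and always CBS, CTH, GOT2 and SLC6A6. Others were added after their values were seen, among them COQ2, RGS5, GPHN and IL32. Gene positions are from GENCODE release 29, matched by identifier. Tested on simulated data for 24 h (16642 genes), the fit recovered 72.9%, 91.5% and 100% of genes changed 1.5-, 2- and 4-fold, and 3.83% of its calls were false. The simulation changed 70, 59 and 71 genes by these folds, a far smaller share than the 55.6% called at 24 h. These rates therefore need not hold for the real data. Alternatives were RLE, upper-quartile and library-total scaling, DESeq2 1.42.0, no filter, a mean of 5 CPM, a replicate block, only the compared groups, and leaving out each sample; for the lists these were added after seeing the data. The genes most like SUOX in pattern are not reported here.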

Additional observations from a re-analysis of the deposited data

Results flagged for a closer look

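The effect of deprivation differed between 48 h and 24 h, by edgeR's interaction test, for 2 of the 8 tested members, where 35.6% of all genes were called. It also differed for the genes of neighbouring pathways whose log2 values follow, other than GPHN. Apart from GPHN, these are listed because the difference was called. Most were also named for a large change at 48 h, which favours such a difference, so how many there are is no result. Of the neighbouring genes named above, KYAT1, SLC25A10, TSTD3, SLC35B3, PAPSS2, SLC25A13, COQ6, RGS4, RGS16 and IL32 had no called difference (adjusted p from 0.0564 to 0.919). For SLC35B3 it was called with RLE scaling (adjusted p = 0.0463), upper-quartile scaling (0.0464) and library totals alone (0.0285). It was also called without control 24 h replicate 2 (0.0414), control 48 h replicate 3 (0.0389) or deprived 48 h replicate 3 (0.0459). TSTD3 gained the call with no filter (adjusted p = 0.0474) and without control 48 h replicate 1 (0.0446), and COQ6 with library totals alone (0.0492). As the log2 effect at 48 h minus that at 24 h, the difference was -0.71 for GOT1 and 0.57 for SQOR. Among the other enzymes that can make sulfide or mercaptopyruvate it was 0.69 for CTH and 0.71 for GOT2. It was 0.30 for TSTD2 (not called without control 24 h replicate 1, 0.26, adjusted p = 0.0605, or control 48 h replicate 3, 0.26, adjusted p = 0.0568). In the taurine branch it was -0.65 for SLC6A6 and -0.67 for GAD1, the latter not called without deprived 24 h replicate 3 (-0.56, adjusted p = 0.061) or deprived 48 h replicate 2 (-0.56, adjusted p = 0.0535). Among molybdenum cofactor genes it was 0.96 for MOCS1, 0.70 for MOCS3 and 0.72 for MOCOS, and for GPHN of the same list -0.20, which was not called (adjusted p = 0.132). In size it was above all of these for COQ2, at -1.42 (adjusted p = 6.21e-07), and RGS5, at -1.35 (adjusted p = 0.00105), and GPHN, COQ2 and RGS5 were named after their values were seen. The others among the genes named above were BPNT1 at 0.42, MDH1 at -0.37, COQ4 at 0.39, COQ8A at -0.54 and UBR4 at 0.59. The difference was also called for genes of the lists that are not named above. It was negative for KYAT3, TSTD1 and COQ7. It was positive for MOCS2, SLC35B2, BPNT2, SLC25A12, PDSS2, ATE1, UBR1 and UBR2.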

How the results depend on the processing

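Of 792 values of the 8 tested members under the alternatives, 766 kept their side of the threshold, 14 lost their call and 12 gained one. Among values called under either setting, 0 reversed direction. The genes of neighbouring pathways named for their change at 48 h or always named, with COQ2 and RGS5, gave 1410 values. Of these, 1377 kept their side of the threshold, 24 lost their call and 9 gained one. Among these too, 0 values called under either setting reversed direction. Values called under neither setting could change sign and were not counted as reversed. Leaving out 1 sample at a time gave 6 to 7 members changed at 24 h, 8 to 8 at 48 h, 2 to 3 for the difference of the effects, 4 to 5 in deprived cells over time and 2 to 4 in control cells over time, the last reaching 2 without control 24 h replicate 2 or control 48 h replicate 3, where the calls of ADO and MPST were lost. Over all genes the leave-one-out counts were 8587 to 9709 at 24 h and 11113 to 11691 at 48 h. No scaling moved the median of all genes by more than 0.07 on the log2 scale. The deviations of same-numbered samples from their group means had correlations of -0.02 to 0.05 at 24 h and -0.01 to 0.18 at 48 h. Differently numbered samples had -0.042 to 0.028 and -0.170 to 0.100. The highest value at each time was that of a same-numbered pair, but all were low, and the numbers were not taken as pairs. With the replicate number as a block, 7 members changed at 24 h and 8 at 48 h, and 9631 and 11734 genes in all. The N-degron list ranged from 3 to 6 genes called at 24 h and from 4 to 8 at 48 h over the alternatives, with the 3 found without control 24 h replicate 2 and the 4 with a mean of at least 5 CPM, which tests fewer genes. All 36 mean levels per kilobase moved by less than 1 SD with library totals. Depth limits CDO1 and DAO, whose levels lay near that of 3 reads.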
